A study of Homo sapiens with 12 samples.

Results

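Genes that move heme, porphyrins or their building blocks across membranes were followed in MDA-MB-231 cells, a breast cancer line of human origin. They are ABCG2, ABCB6, ABCB10, FLVCR1, FLVCR2, SLC48A1, SLC25A38, SLC25A39 and TMEM14C, and they were chosen by name, as probe sets of the array whose gene symbol is one of these 9. Of the 9 genes, 8 were found by the symbol in the deposited table and 1, SLC48A1, by its Entrez gene number, since the table lists it under an older name. Each gene has 1 probe set, and all 9 are among the 12151 genes that were tested.

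Transcript signals came from 12 arrays in 4 groups of 3. One group was given FECH siRNA at 15 nM together with 0.1 mM 5-aminolevulinic acid (5-ALA). Another received 15 nM of Allstar siRNA, the control siRNA, and the same dose of 5-ALA. The remaining groups received 5-ALA only, with no siRNA, or no treatment. FECH encodes ferrochelatase, which inserts iron into protoporphyrin IX to make heme, and 5-ALA is the first dedicated precursor of that pathway. All cells were of the same line and FECH was targeted with 1 siRNA sequence, 5′-gaauauccucuugguuccg-3′, shown because every FECH siRNA value below depends on it. Whether the 3 samples of a group were separate cultures is not in the labels, and the p-values then cover only the spread between these samples, which may be technical.

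Heme synthesis starts and ends in mitochondria and passes through the cytosol in between, so its intermediates have to cross both mitochondrial membranes. SLC25A38 brings glycine, a substrate of the first enzyme, into the matrix, and TMEM14C carries protoporphyrinogen IX inward, as shown in mouse erythroid cells. ABCB10 is an inner membrane transporter needed for hemoglobin synthesis in mouse erythroid cells, and SLC25A39 imports glutathione into mitochondria. ABCB6 is an ABC transporter of porphyrins whose place in the cell is debated. SLC48A1, also known as HRG1, moves heme from lysosomes and endosomes to the cytosol. At the cell surface, ABCG2 exports porphyrins including protoporphyrin IX, FLVCR1 was described as a heme exporter and FLVCR2 as a heme importer, and both FLVCR proteins also carry choline.

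The targeted gene was lower in the FECH siRNA samples. FECH averaged 6.53 ± 0.09 log2 signal with FECH siRNA, 8.55 ± 0.05 with control siRNA, 8.50 ± 0.12 with 5-ALA only and 8.49 ± 0.09 with no treatment (SD, n = 3 each). It fell by 2.02 on the log2 scale against control siRNA (limma adjusted p = 1.7e-09). The FECH siRNA mean lies under 7.29, the median of all probe sets that served as the filter level, so the fall is a ratio of signals whose lower value may be background. The median log2 signal of the arrays lay between 7.25 and 7.34. Untreated replicate 3 stood apart from its group: 416 of the 12151 genes differed by over 0.5 on the log2 scale from the mean of the other untreated samples, against 10 to 115 genes, counted the same way, on the other 11 arrays. Of 6 mesenchymal markers of the line, 5 were above the filter level on all arrays and SPARC was below it on all. The luminal markers ESR1 and PGR were below it on all arrays, whereas GATA3, EPCAM and KRT19 were above it. Of 7 red cell markers with a probe set, 3 had a mean above the filter level, with KLF1 and EPOR above it on all arrays, while HBB, SLC4A1 and ALAS2 were below it on all.

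FECH siRNA changed 4 of the 9 transporter genes relative to control siRNA. ABCB10 fell, and SLC48A1, FLVCR2 and SLC25A39 rose, at an adjusted p below 0.05 by limma with the Benjamini-Hochberg adjustment over 12151 genes. In the same comparison 38.3% of all genes tested were called, so 4 of 9 is a share near the background. The median log2 fold change was 0.25 over the 9 transporters and -0.0008 over all genes tested. The same 4 genes were called in the same direction against 5-ALA only, where 37% of genes were called, and against no treatment, where 37.3% were. These 3 comparisons share the FECH siRNA samples and are not independent of one another. The median log2 fold changes over the 9 transporters were 0.08 against 5-ALA only and 0.16 against no treatment, beside 0.02 over all genes in both. Without untreated replicate 3, the array that stood apart, the same 4 genes were called against no treatment, with log2 fold changes of -0.80 for ABCB10, 0.60 for SLC48A1, 0.39 for SLC25A39 and 0.31 for FLVCR2.

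None of the 9 was called between the other groups by limma without a block for the runs of sample numbers, which are described below. For control siRNA against 5-ALA only, 6.2% of all genes were called, and 2 of the 9 transporters had an unadjusted p below 0.05. For control siRNA against no treatment the values were 4.62% and 3 of 9. For 5-ALA only against no treatment, 0.0165% of genes were called, and 0 of the 9 had an unadjusted p below 0.05. With the runs as a replicate block, FLVCR1 was called for control siRNA against 5-ALA only (adjusted p = 0.014) and against no treatment (adjusted p = 0.019). The block also moved the genes called to 1652, against 753 without it, in the first of these comparisons and to 1296, against 561, in the other.

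**Figure D1:**
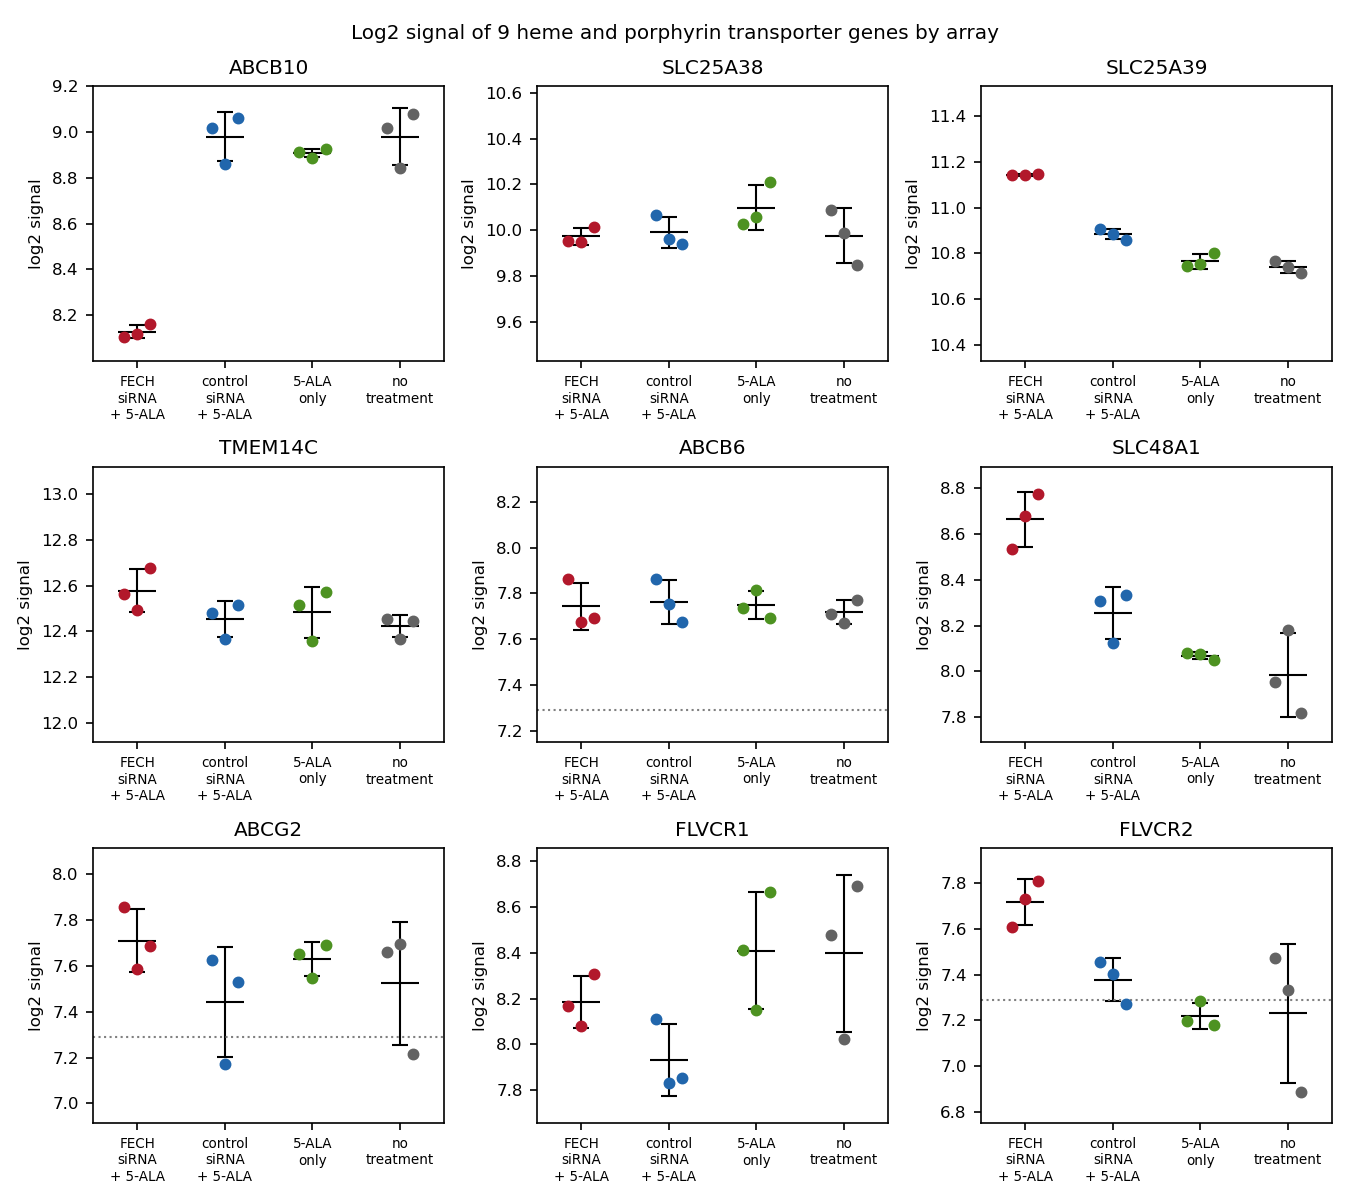
Each panel plots the log2 signal (vertical axis) of 1 gene in the 4 treatment groups (horizontal axis), with a dot for each array, a long bar for the group mean and error bars for the SD (n = 3). The vertical axes start at different levels, and the dotted line in the panels of ABCB6, ABCG2 and FLVCR2 is the filter level of 7.29. The 3 FECH siRNA dots lie below all others for ABCB10 and above all others for SLC25A39, SLC48A1 and FLVCR2.

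The promoter windows of the 4 genes called with FECH siRNA are shown because these genes moved in opposite directions. Each is 300 bases long, 250 before and 50 after a start listed for the gene, from RefSeq on GRCh38.p14, written 5′ to 3′ on the strand of the gene. The windows of ABCB10, SLC25A39 and FLVCR2 lie at the outer end of the gene as RefSeq gives it, and that of SLC48A1 lies inside the span of its gene. Capitals mark matches to 3 motifs searched on both strands: the E-box CACGTG, the core of the antioxidant response element TGACNNNGC, and the GC box GGGCGG.
ABCB10 (chr1:229558658-229558957, minus strand): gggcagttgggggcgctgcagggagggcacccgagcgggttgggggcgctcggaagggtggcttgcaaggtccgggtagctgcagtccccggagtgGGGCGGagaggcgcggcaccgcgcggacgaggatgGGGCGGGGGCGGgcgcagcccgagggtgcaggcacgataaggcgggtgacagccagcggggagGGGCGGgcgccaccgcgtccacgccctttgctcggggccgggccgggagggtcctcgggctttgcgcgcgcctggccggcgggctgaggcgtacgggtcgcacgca
SLC25A39 (chr17:44324774-44325073, minus strand): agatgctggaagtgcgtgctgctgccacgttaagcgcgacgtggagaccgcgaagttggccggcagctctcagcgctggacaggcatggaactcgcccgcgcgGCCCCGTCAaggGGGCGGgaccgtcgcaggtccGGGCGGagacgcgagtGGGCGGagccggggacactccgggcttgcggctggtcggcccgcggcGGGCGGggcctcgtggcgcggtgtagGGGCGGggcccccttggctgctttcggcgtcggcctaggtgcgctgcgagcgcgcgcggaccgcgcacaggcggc
SLC48A1 (chr12:47772988-47773287, plus strand): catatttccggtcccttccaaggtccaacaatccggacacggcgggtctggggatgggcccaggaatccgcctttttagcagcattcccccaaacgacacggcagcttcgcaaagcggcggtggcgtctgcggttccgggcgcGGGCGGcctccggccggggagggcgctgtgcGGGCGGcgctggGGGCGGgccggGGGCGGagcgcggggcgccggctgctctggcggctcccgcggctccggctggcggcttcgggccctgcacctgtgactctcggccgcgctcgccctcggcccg
FLVCR2 (chr14:75578370-75578669, plus strand): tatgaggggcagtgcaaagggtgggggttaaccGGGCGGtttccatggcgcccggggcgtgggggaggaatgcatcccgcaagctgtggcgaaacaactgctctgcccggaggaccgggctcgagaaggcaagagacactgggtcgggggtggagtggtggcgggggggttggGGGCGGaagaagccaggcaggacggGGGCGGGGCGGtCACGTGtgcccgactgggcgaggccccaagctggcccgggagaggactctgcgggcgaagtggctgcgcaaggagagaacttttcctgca
The GC box was found in all 4 windows, 5 times in that of SLC25A39 and 4 times in each of the others, with 2 of the 4 in FLVCR2 sharing a letter. The antioxidant core was found in the window of SLC25A39 and the E-box in that of FLVCR2. FLVCR2 has 2 windows in RefSeq, of which the first is shown.

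RefSeq lists 14 windows for the 9 genes, and all 9 genes matched. The E-box was in a window of 5 genes, ABCB6, ABCG2, FLVCR2, SLC25A38 and TMEM14C, and in 8.77% of all 27305 genes with a window. The antioxidant core was in a window of 3, ABCB6, ABCG2 and SLC25A39, and in 16.1% of all genes. The GC box was in a window of every member but SLC25A38, and in 48.3% of all genes. The shares over all genes are not a matched background. They cover 35116 windows for 27305 genes, include genes not tested here, and were not matched for G and C content. ABCG2 alone has 5 of the 14 member windows. These are matches of letters and not binding sites.

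Among the mitochondrial transporters, ABCB10 had the largest change of the 9. Its log2 signals were 8.11, 8.12 and 8.16 with FECH siRNA, against 9.02, 8.86 and 9.06 with control siRNA, 8.91, 8.89 and 8.93 with 5-ALA only and 9.02, 8.84 and 9.08 with no treatment. All 3 FECH siRNA samples lay below all 9 others, and the other 3 groups overlapped each other. The log2 fold change against control siRNA was -0.85 (SE 0.07, 95% interval -1.01 to -0.70, limma adjusted p = 9.0e-07), which is a signal 1.81-fold lower, or 55.4% of the control level. Against 5-ALA only it was -0.78 (adjusted p = 2.2e-06), and against no treatment -0.85 (adjusted p = 1.1e-06). Of the 12151 genes, 267 fell more than ABCB10 against control siRNA, or 2.2%.

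Between the groups without FECH siRNA, ABCB10 differed little. The log2 fold change of control siRNA over no treatment was 0.00 (95% interval -0.15 to 0.15), and that of 5-ALA only over no treatment was -0.07 (95% interval -0.23 to 0.08). The genes whose profile over the 12 arrays was most like that of ABCB10, each centred on its own mean, were FYTTD1, KIF5B and UTRN. Their mean absolute differences from ABCB10 were 0.045, 0.048 and 0.052 on the log2 scale. FYTTD1 encodes an adaptor for mRNA export, KIF5B a kinesin heavy chain and UTRN utrophin. RefSeq lists 3 pseudogenes of ABCB10, and whether the probes of the array also match these is not known here.

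SLC25A39, the mitochondrial glutathione importer, rose by a small and even amount. Its log2 signals were 11.14, 11.14 and 11.15 with FECH siRNA, against 10.91, 10.89 and 10.86 with control siRNA, 10.74, 10.75 and 10.80 with 5-ALA only and 10.77, 10.74 and 10.72 with no treatment. The FECH siRNA samples were highest, the control siRNA samples came next, and neither group overlapped any other. The log2 fold change of FECH siRNA over control siRNA was 0.26 (SE 0.05, 95% interval 0.15 to 0.37, limma adjusted p = 0.0011), or 1.20-fold. It was 0.38 over 5-ALA only (adjusted p = 5.8e-05), and 0.40 over no treatment (adjusted p = 3.3e-05), or 1.32-fold.

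The control siRNA samples were above the 5-ALA only samples for SLC25A39 by 0.12 on the log2 scale (limma adjusted p = 0.197) and above the untreated samples by 0.14 (adjusted p = 0.136), and neither difference passed the test. Both come with groups that do not overlap. RefSeq lists 2 pseudogenes of SLC25A39 and 1 of SLC25A38, again with no information here on probe matches.

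TMEM14C, which carries protoporphyrinogen IX in mouse erythroid cells, did not pass the test in any comparison without the replicate block. Its log2 signals were 12.56, 12.49 and 12.68 with FECH siRNA, against 12.48, 12.37 and 12.52 with control siRNA, 12.52, 12.36 and 12.57 with 5-ALA only and 12.46, 12.37 and 12.44 with no treatment. The FECH siRNA samples overlapped the control siRNA and 5-ALA only samples but lay above all 3 untreated samples. Against control siRNA the log2 fold change was 0.12 (95% interval -0.03 to 0.28, limma adjusted p = 0.204), and against no treatment it was 0.16 (adjusted p = 0.112). With a replicate block for the runs of sample numbers, described below, the adjusted p against no treatment was 0.019.

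SLC25A38, the glycine carrier, stayed within a narrow range. SLC25A38 had log2 signals of 9.95, 9.95 and 10.02 with FECH siRNA, against 10.07, 9.96 and 9.94 with control siRNA, 10.03, 10.06 and 10.21 with 5-ALA only and 10.09, 9.99 and 9.85 with no treatment. The FECH siRNA samples overlapped the control siRNA and untreated samples and lay just below the 5-ALA only samples. Over control siRNA the log2 fold change was -0.02 (95% interval -0.18 to 0.14, limma adjusted p = 0.872). Over 5-ALA only the value was -0.13 (95% interval -0.28 to 0.03, adjusted p = 0.203).

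ABCB6, the porphyrin transporter of debated location, had the smallest spread of group means of the 9. ABCB6 had log2 signals of 7.86, 7.68 and 7.69 with FECH siRNA, against 7.86, 7.75 and 7.67 with control siRNA, 7.74, 7.82 and 7.69 with 5-ALA only and 7.71, 7.67 and 7.77 with no treatment. All 4 groups overlapped, and the highest and lowest group means were 0.04 apart. Relative to control siRNA the log2 fold change was -0.02 (95% interval -0.17 to 0.13, limma adjusted p = 0.862), so the interval allows a change of up to 0.17 downward.

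SLC48A1, the heme transporter of lysosomes and endosomes, had the largest rise of the 9. Its log2 signals were 8.54, 8.68 and 8.78 with FECH siRNA, against 8.31, 8.12 and 8.33 with control siRNA, 8.08, 8.08 and 8.05 with 5-ALA only and 7.96, 8.18 and 7.82 with no treatment. All 3 FECH siRNA samples lay above all 9 others. It rose by 0.41 on the log2 scale against control siRNA (SE 0.09, 95% interval 0.21 to 0.61, limma adjusted p = 0.0031), or 1.33-fold. The rise was 0.60 against 5-ALA only (adjusted p = 2.0e-04), or 1.51-fold, and 0.68 against no treatment (adjusted p = 6.6e-05), or 1.60-fold.

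The control siRNA samples of SLC48A1 lay above all 3 samples with 5-ALA only, by 0.19 on the log2 scale (limma adjusted p = 0.270), and overlapped the untreated samples, with a difference of 0.27 (adjusted p = 0.122). Neither passed the test. Without untreated replicate 2, the highest of its group for this gene, the difference of control siRNA from no treatment was 0.37 and passed (adjusted p = 0.038).

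**Figure D2:**
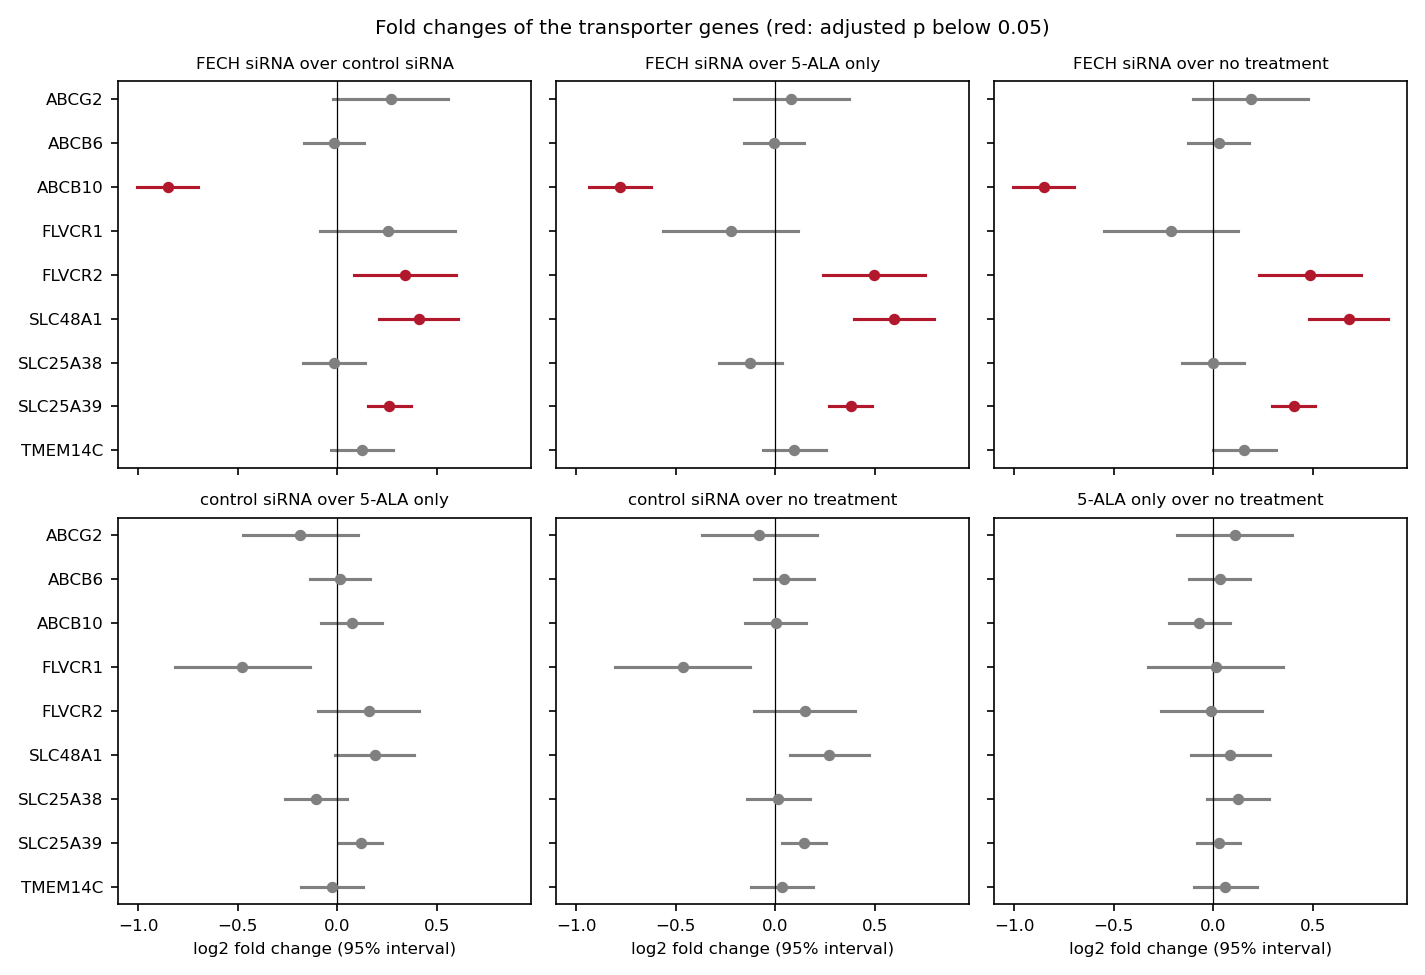
Each panel plots, for 1 of the 6 comparisons, the log2 fold change (horizontal axis, the group named first in the panel title over the one named second) of the 9 genes (vertical axis) as a dot with its 95% interval from limma, in red where the adjusted p is below 0.05. ABCB10 at -0.85 to -0.78 is the only red dot left of 0, SLC48A1, FLVCR2 and SLC25A39 are red to the right of 0 in the 3 FECH siRNA panels, and the other 3 panels hold no red dot.

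FLVCR2, the second FLVCR family member, was also higher with FECH siRNA. FLVCR2 had log2 signals of 7.61, 7.73 and 7.81 with FECH siRNA, against 7.46, 7.40 and 7.27 with control siRNA, 7.20, 7.29 and 7.18 with 5-ALA only and 7.47, 7.33 and 6.89 with no treatment. All 3 FECH siRNA samples lay above all 9 others, but the gene was above the filter level on only 7 of the 12 arrays. It was below that level on all 3 arrays with 5-ALA only, on 1 with control siRNA and on 1 with no treatment, so the folds are ratios of signals near background.

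FLVCR2 had a log2 fold change of 0.34 against control siRNA (SE 0.12, 95% interval 0.08 to 0.59, limma adjusted p = 0.036), or 1.26-fold. That call was lost without FECH siRNA replicate 2 (adjusted p = 0.090), FECH siRNA replicate 3 (0.115), control siRNA replicate 2 (0.073) or control siRNA replicate 3 (0.119). Against 5-ALA only the log2 fold change was 0.50 (adjusted p = 0.0046), and against no treatment it was 0.49 (adjusted p = 0.0053). Without untreated replicate 3, the lowest sample at 6.89, the last value was 0.31 (adjusted p = 0.0080).

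FLVCR1 was lowest with control siRNA, and none of its differences passed the test without the replicate block. FLVCR1 had log2 signals of 8.17, 8.08 and 8.31 with FECH siRNA, against 8.11, 7.83 and 7.85 with control siRNA, 8.41, 8.15 and 8.67 with 5-ALA only and 8.48, 8.02 and 8.69 with no treatment. The control siRNA samples lay below all 3 samples with 5-ALA only and overlapped the other groups. Control siRNA over 5-ALA only had a log2 fold change of -0.48 (95% interval -0.82 to -0.14, limma adjusted p = 0.094), and over no treatment it was -0.47 (adjusted p = 0.119).

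These FLVCR1 differences depended on the fit and on single untreated arrays. With the replicate block, as given above, control siRNA passed the test against both 5-ALA only and no treatment. The first also passed without untreated replicate 2 (0.041), without untreated replicate 3 (0.045) or with only the 2 groups in the fit (0.047). The second also passed without untreated replicate 2, with a log2 fold change of -0.65 (0.022). FECH siRNA over control siRNA had a log2 fold change of 0.25 (adjusted p = 0.231), which passed with only those 2 groups in the fit (0.046). FECH siRNA over no treatment had -0.21 (adjusted p = 0.321), which became -0.40 without untreated replicate 2 (0.040).

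ABCG2, the exporter of porphyrins at the cell surface, did not pass the test in any of the 6 comparisons. ABCG2 had log2 signals of 7.86, 7.59 and 7.69 with FECH siRNA, against 7.63, 7.17 and 7.53 with control siRNA, 7.65, 7.55 and 7.69 with 5-ALA only and 7.66, 7.70 and 7.22 with no treatment. All 4 groups overlapped, and 1 control siRNA and 1 untreated sample were below the filter level. The log2 fold change of FECH siRNA over control siRNA was 0.27 (95% interval -0.02 to 0.56, limma adjusted p = 0.135), over 5-ALA only it was 0.08 (adjusted p = 0.692) and over no treatment 0.19 (adjusted p = 0.307).

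With 5-ALA alone, none of the 9 transporter genes passed the limma test. The log2 fold changes of 5-ALA only over no treatment ran from -0.07 for ABCB10 to 0.12 for SLC25A38, and the widest interval, for FLVCR1, was -0.33 to 0.35. In the same comparison HMOX1, the heme oxygenase that degrades heme, was 2.01 higher on the log2 scale (limma adjusted p = 7.9e-06). HMOX1 averaged 8.66 with FECH siRNA, 10.33 with control siRNA, 10.69 with 5-ALA only and 8.68 with no treatment.

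Samples are numbered from 1 to 12 in their titles, in 3 runs that each hold 1 sample of every group, and arrays of 1 run deviated together. Once each group's mean was taken away, arrays that shared a run but not a group correlated across genes at 0.207 to 0.539 (18 pairs). Arrays of different runs and groups correlated at -0.436 to 0.154 (36 pairs). The 3 deviations of a group cancel for each gene, so positive correlations within runs bring negative ones between runs. The gap between these ranges is therefore partly set by taking the group means away. FLVCR1 moved most with the run among the transporters, with mean deviations of 0.06, -0.21 and 0.15 on the log2 scale in runs 1, 2 and 3. The deviations of ABCG2 were 0.12, -0.08 and -0.05, and those of TMEM14C were 0.02, -0.09 and 0.07.

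Within runs, FECH siRNA minus control siRNA was negative for ABCB10 in 3 of 3 runs, at -0.91, -0.74 and -0.90. It was positive in 3 of 3 runs for SLC48A1 (0.23, 0.56 and 0.44), FLVCR2 (0.15, 0.33 and 0.54) and SLC25A39 (0.23, 0.26 and 0.29). ABCG2, FLVCR1 and TMEM14C, which did not pass the test, were also positive in 3 of 3 runs, and ABCB6 and SLC25A38 had both signs. With 3 samples against 3, an exact two-sided permutation test of a single gene cannot go below 0.1, and this was its value for ABCB10, SLC48A1, FLVCR2 and SLC25A39.

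**Figure D3:**
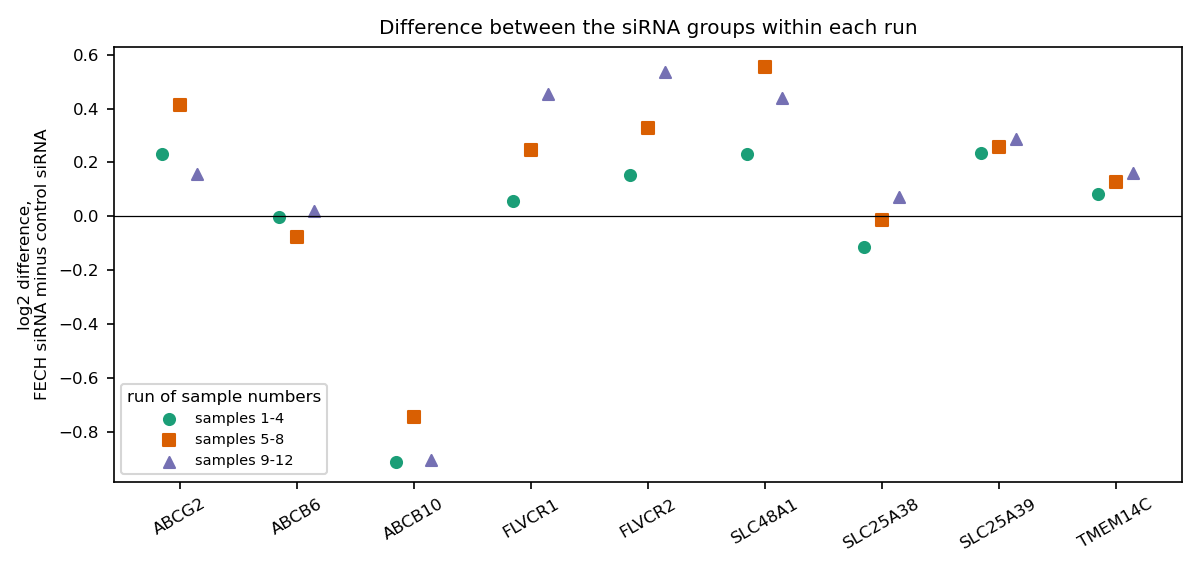
The plot gives, for each of the 9 genes (horizontal axis), the log2 difference of FECH siRNA minus control siRNA (vertical axis) within each of the 3 runs of sample numbers, with 1 symbol per run and a line at 0. ABCB10 lies at -0.91, -0.74 and -0.90, while the 3 symbols of SLC25A39 lie between 0.23 and 0.29.

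Other genes of heme and porphyrin trafficking mostly did not pass. Of 19 tested with FECH siRNA over control siRNA, 1 rose and 1 fell. That is 2 of 19 called where 38.3% of all genes were, and their median log2 fold change was -0.03. PGRMC1, a heme-binding partner of ferrochelatase, rose by 0.66 (limma adjusted p = 2.1e-06), and its relative PGRMC2, described as a carrier of labile heme, fell by 0.42 on the log2 scale (adjusted p = 2.8e-04). Control siRNA itself was below 5-ALA only for PGRMC1, by -0.47 on the log2 scale (adjusted p = 6.8e-04), and the rise of PGRMC1 was 0.19 against 5-ALA only (adjusted p = 0.023). SLC25A37, the mitochondrial iron importer, had a log2 fold change of -0.06 (adjusted p = 0.497), and was chosen for its role beside ABCB10 after its values were seen.

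Among 8 paralogs of the mitochondrial ABC transporters and carriers, 1 rose and 1 fell, beside 38.3% called over all genes. SLC25A40, the closest relative of SLC25A39 and also a glutathione carrier, fell by 0.56 on the log2 scale (limma adjusted p = 3.3e-04), the direction opposite to that of SLC25A39. SLC25A44, a carrier of branched-chain amino acids, rose by 0.36 (adjusted p = 0.0011). Of 8 genes of glutathione synthesis and SLC25A39 partners, 1 rose and 2 fell, namely GSR, glutathione reductase, with 0.15 (adjusted p = 0.041), SLC25A40, and GCLM, the modifier subunit of the first glutathione enzyme, with -0.54 (adjusted p = 4.8e-04). Calls in 3 of 8 genes are a share near the 38.3% of all genes.

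Genes that supply or use what SLC25A38 and the FLVCR proteins carry were counted as well, again beside 38.3% called over all genes. Of 7 genes of glycine and one-carbon supply, 2 rose and 0 fell, SHMT2 by 0.37 (limma adjusted p = 0.0023) and SHMT1 by 0.19 (adjusted p = 0.045), both of which interconvert serine and glycine. Of 10 genes of choline and ethanolamine use, 1 rose and 3 fell, a share near that background. CHKA, choline kinase alpha, rose by 0.64 on the log2 scale (adjusted p = 3.5e-06). CHPT1, which makes phosphatidylcholine in its last step, fell by 1.01 (adjusted p = 2.6e-07), ETNK2, an ethanolamine kinase, by 0.42 (adjusted p = 0.0074), and the choline transporter-like gene SLC44A2 by 0.29 (adjusted p = 9.9e-04). Over 5-ALA only, FECH siRNA had log2 fold changes of 0.18 for SHMT2 (adjusted p = 0.105), -0.25 for ETNK2 (0.095) and 0.04 for GSR (0.578), none of which passed.

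Of 7 tested drug efflux transporters of the ABC family, 1 rose and 1 fell with FECH siRNA over control siRNA. Over all genes 38.3% were called, and the median over these 7 was 0.02 on the log2 scale. ABCC4 rose by 0.36 (limma adjusted p = 7.4e-04) and ABCC3 fell by 0.86 (adjusted p = 6.9e-06) on the log2 scale, both being exporters of organic anions. Control siRNA itself was below 5-ALA only for ABCC4, by -0.27 on the log2 scale (adjusted p = 0.029), and FECH siRNA over 5-ALA only had 0.09 (adjusted p = 0.336). In 13 genes of heme synthesis and breakdown 4 rose and 4 fell, beside 38.3% called over all genes, with a median of -0.14. FECH, the target of the siRNA, is 1 of the 4 that fell, so its call was given by the design. ALAS1, the first enzyme of the pathway, rose by 1.13 (adjusted p = 4.0e-06). Its mean log2 signals were 9.88 with FECH siRNA, 8.75 with control siRNA, 8.71 with 5-ALA only and 9.46 with no treatment. For ALAS1, control siRNA over no treatment had -0.72 (limma adjusted p = 0.0026) and FECH siRNA over no treatment 0.41 (adjusted p = 0.010). The fall with 5-ALA only over no treatment was of like size, at -0.76, but did not pass (limma adjusted p = 0.054). BACH1, of the same list, rose by 0.54 against control siRNA (adjusted p = 7.5e-05) and by 0.25 against 5-ALA only (adjusted p = 0.019). Its level with control siRNA was itself lower than with 5-ALA only, by -0.29 on the log2 scale (limma adjusted p = 0.036).

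**Figure D4:**
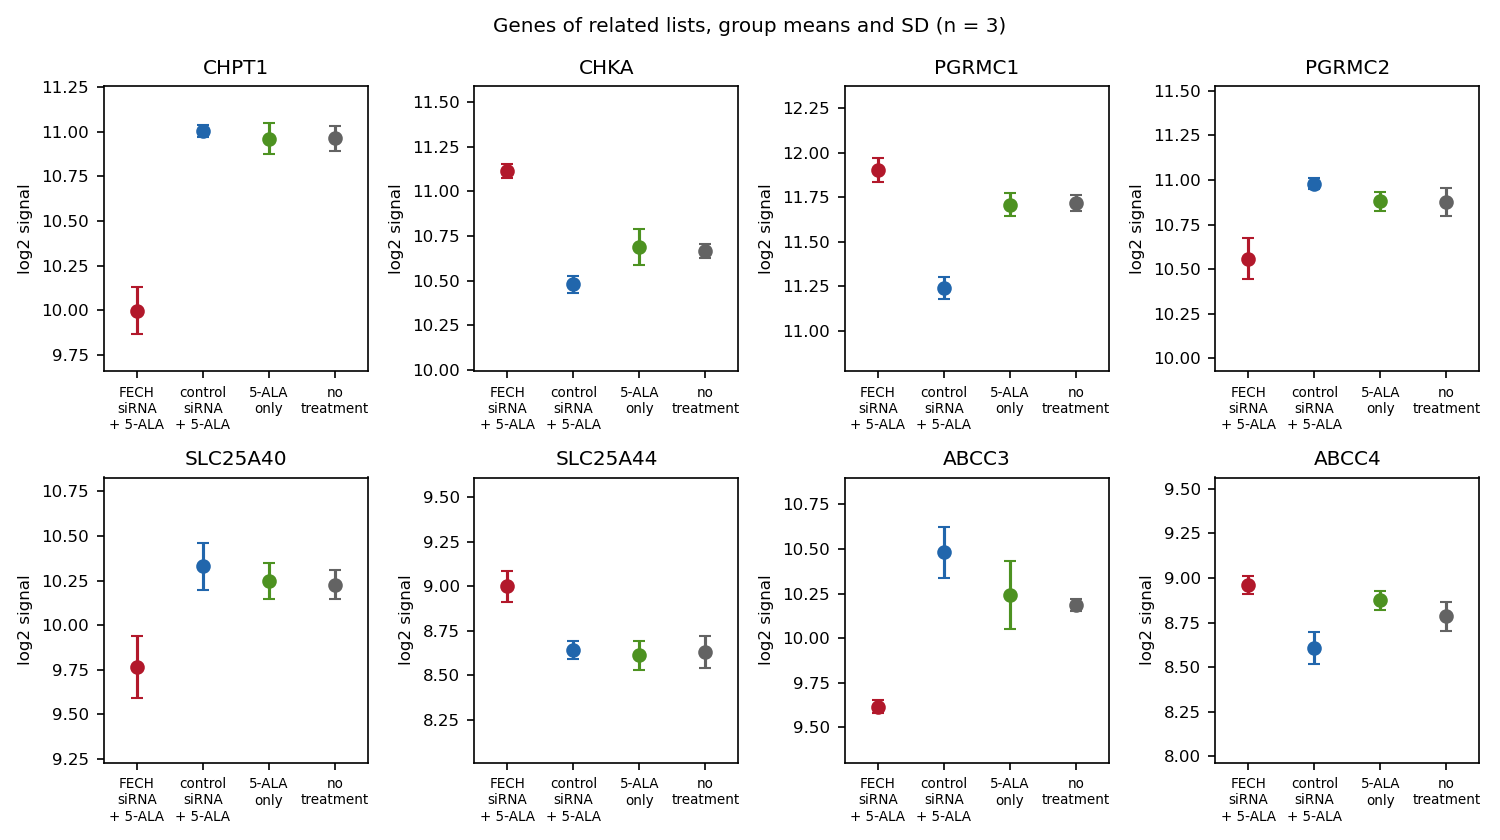
Each panel plots the mean log2 signal (vertical axis) of 1 gene of the related lists in the 4 treatment groups (horizontal axis), with error bars for the SD (n = 3). All vertical axes span 1.6 log2 units. CHPT1, PGRMC2, SLC25A40 and ABCC3 are lowest with FECH siRNA, and CHKA, PGRMC1, SLC25A44 and ABCC4 are highest with it.

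Signals of marker lists of other cell types also differed between the groups. The mean log2 signal of 5 blood and immune markers was 6.94 to 7.06 with FECH siRNA, against 7.42 to 7.46 with control siRNA, 7.26 to 7.35 with 5-ALA only and 7.33 to 7.35 with no treatment. Of these 5, 3 had a mean below the filter level, and the defining genes PTPRC and CD3E were below it on all arrays. The mean of 5 fibroblast markers was 7.84 to 7.89 with FECH siRNA, against 7.96 to 8.07 with control siRNA, 7.68 to 7.80 with 5-ALA only and 7.75 to 7.84 with no treatment. Of these 5, 3 had a mean above the filter level. The part of either list in the transporter results was not tested.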

How the data were processed

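The authors deposited 1 signal intensity per probe set and array on a linear scale, made with RMA in oligo per the submitters' processing notes. Tool versions and build were not given in the sources used here. Intensities ran from 20.96 to 23640.7. They were turned into log2 values with a pseudocount of 0 (the design had foreseen log2 values), and 12 further columns were not used. Probe sets with 1 symbol (19937 of 28869) were brought to current symbols by Entrez number where RefSeq holds it. A gene was tested if its probe set exceeded the overall probe set median on at least 3 of 12 arrays, and the probe set of highest mean stood for a symbol. Groups come from the sample titles. In R 4.3.3, limma 3.58.1 fitted 1 mean per group over all 12 arrays, and p-values are two-sided, Benjamini-Hochberg adjusted within each comparison. The fit was tested on simulated data with independent noise on each array, which does not cover the shared deviations of a run. The number of arrays limits the precision.

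The 9 members and the other lists were chosen with earlier results of these data known. All 9 are named, with FECH and HMOX1, and from each other list up to 4 members called with FECH siRNA over control siRNA with the largest change. For members with an absolute change above 0.58 there, the 3 most alike genes were added. Other genes are marked as chosen after their values were seen. The alternatives were the filter, the variance prior, the samples fitted, the scaling, array weights, averaged probe sets, the deposited value table, each array left out, and a block for runs of sample numbers, which pair the samples by the correlations given above.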

Additional observations from a re-analysis of the deposited data

How the results depend on the processing

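Of 1158 single-gene values under an alternative, 1144 stayed on the same side of the threshold, 14 changed side, and 0 called values changed sign. Many of these values could change little. Most were not called in the main fit, and the deposited value table holds the same data. Leaving out an array outside a comparison also keeps the fold changes of that comparison. Some values that were never called did change sign, such as that of ABCB6 with FECH siRNA over control siRNA, from -0.08 to 0.03 over the alternatives. ABCB10, SLC48A1 and SLC25A39 kept their calls in the 3 FECH siRNA comparisons under every alternative in which they were tested, leaving out each array included. Under a filter at the 70th percentile only 4 of the 9 members were tested, and 2 were called (ABCB10 and SLC25A39) in each FECH siRNA comparison. With a replicate block for the runs of sample numbers, 1 member, FLVCR1, was called for control siRNA over 5-ALA only and 1, also FLVCR1, over no treatment, with 1652 and 1296 genes called, and TMEM14C was added for FECH siRNA over no treatment. No other member call changed with the block. With only the 2 groups in the fit, 1 member was called for control siRNA over 5-ALA only, 210 genes for control siRNA over no treatment and 1 gene for 5-ALA only over no treatment. The cause was not tested.

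Leaving out 1 array at a time, the members called ranged from 3 to 4 for FECH siRNA over control siRNA, 4 to 4 over 5-ALA only and 4 to 5 over no treatment, from 0 to 1 for control siRNA over 5-ALA only and 0 to 2 over no treatment, and 0 to 0 for 5-ALA only over no treatment. In the same order the genes called ranged from 3810 to 5025, 3666 to 4876, 3675 to 4501, 350 to 1032, 270 to 550 and 2 to 3. FLVCR1, FLVCR2, SLC48A1 and TMEM14C gave all changes of single-gene calls. Signal near background limits FLVCR2 and ABCG2.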

Other observations

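Some genes of the related lists changed in other comparisons than that of both siRNAs, and are named after their values were seen. ABCC5, an exporter linked to heme in worms, was above 5-ALA only in both siRNA groups. The log2 fold changes were 0.38 with FECH siRNA (limma adjusted p = 0.0071) and 0.60 with control siRNA (adjusted p = 0.0028). Its mean log2 signal was 7.37 with 5-ALA only, close to the filter level of 7.29, so these folds are ratios over a signal near background. TMEM14A, a relative of TMEM14C, fell with FECH siRNA by 0.32 on the log2 scale against 5-ALA only (adjusted p = 0.017) and by 0.33 against no treatment (adjusted p = 0.013).

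BLVRB, BLVRA and CLPX were likewise named after their values were seen. Of the enzymes around biliverdin, which ABCB10 has been proposed to carry, the reductases moved apart with FECH siRNA over control siRNA, where 38.3% of all genes were called. BLVRB rose by 0.54 on the log2 scale (limma adjusted p = 6.0e-05) and BLVRA fell by 0.44 (adjusted p = 2.1e-04). CLPX, a mitochondrial unfoldase that acts on ALAS1 protein, fell by 0.38 (adjusted p = 8.3e-04).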
